A study of Homo sapiens with 6 samples.

Results

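SG1 is a guide RNA aimed at PKLR, and its GUIDE-seq list holds 449 genomic sites: the intended site in PKLR and 448 off-target sites. The intended site was taken as the most counted listed site on chromosome 1 inside PKLR (155289293 to 155308654, hg38), and every other listed site is an off-target site. The 448 sites are a part of the 1620 off-target sites listed over 6 guides. All libraries came from HEK293 cells, a human embryonic kidney line that here stably expresses Cas9, nucleofected with a crRNA and tracrRNA complex and a double-stranded tag. The groups differ in the guide alone (SG1, SG2, SG3, SG4, SG7 or SG8), with 1 library for each guide. No repeat, untreated or tag-only library was analysed here. The values below therefore have no replicates behind them, and guides are set side by side without a test.

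Cas9 is carried to DNA by a guide RNA and cuts where the guide pairs with a stretch of DNA that lies next to a short motif, the PAM. For the common Cas9 of Streptococcus pyogenes the PAM is NGG, where N is any base. The enzyme tolerates some mismatched letters, and also an unpaired base in the guide or the DNA, so a guide can cut at places other than its target. GUIDE-seq marks such breaks in living cells by the capture of a tag, and the count of a site reflects how often tagged breaks were read there. PKLR encodes the pyruvate kinase of liver and red cells, the last enzyme of glycolysis, and its loss causes a hereditary haemolytic anaemia.

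The listed PKLR position, 155301433, lay 5 bases inside the start of a RefSeq transcript of PKLR (155301438, minus strand). No source used here gives the guide sequence. The words that SG1 could match were read from the RefSeq promoter window of PKLR (GRCh38.p14). A word here is 20 bases next to NGG, and Cas9 cuts 3 bases from the PAM. Within 10 bp of the listed position 5 words would be cut. They are shown because any of them could be the SG1 target, with the PAM in capitals:

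PKLR word 1: ggcctggggctgcgggaccaTGG

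PKLR word 2: atcctctccctctcattccaTGG

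PKLR word 3: ctgcgggaccatggaatgagAGG

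PKLR word 4: tgcgggaccatggaatgagaGGG

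PKLR word 5: gaccatggaatgagagggagAGG

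Word 3 (chr1:155301417-155301439, plus strand) would be cut 1 bp from the listed position. Word 2 (chr1:155301425-155301447, minus strand) and word 4 (chr1:155301418-155301440, plus strand) would be cut 2 bp from it. Word 5 would be cut 7 bp away and word 1 at a distance of 8 bp. Whether listed positions count from 0 or 1 is not stated, which shifts each distance by at most 1 bp.

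For 5 off-target sites the RefSeq table held the sequence around the listed position. They lay at the starts of ETHE1 (1209 counts), EEPD1 (413 counts), RAB23 (13 counts), SMAD5 (9 counts) and the non-coding gene MIR205HG (2 counts). Each PKLR word was laid against every NGG-flanked stretch cut within 10 bp of the listed position on both strands, with a gap of at most 1 base. For 4 of the 5 sites the lowest number of differing letters was reached by word 3. The stretches are printed 5′ to 3′, with letters that differ from word 3 in capitals and the PAM as the last 3 bases:

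ETHE1: ctgcgggGTcaggaatgagcgg

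EEPD1: AGgcgggGccatggaagagggg

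RAB23: cGgcgggTccaCAgatgagggg

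MIR205HG: ctgGgggaccatgAaTGgagagg

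The ETHE1 stretch (chr19:43527186-43527207, plus strand) lacked base 12 of word 3 and differed from it in 2 letters. Within the same 10 bp, the closest of the other words differed from the ETHE1 sequence in 8 letters. The EEPD1 stretch (chr7:36153048-36153069, minus strand) lacked base 17 and differed in 3 letters, and word 4, shifted by a single base, also reached 3. At RAB23 (chr6:57222273-57222294, minus strand) base 15 was missing and 4 letters differed, against 10 for the closest other word. The MIR205HG stretch (chr1:209428676-209428698, minus strand) matched word 3 without a gap but for 4 letters, which word 4 reached only with a gap.

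SMAD5 stood apart from the other sites in this search, which left out stretches that are not next to NGG. Word 3 differed there in 9 letters, and the closest word was word 1, with 5 differing letters and an extra base. The longest stretch that SMAD5 shares with PKLR, given below, nevertheless includes the opening bases of word 3. Such a match to word 1 is common: 2712 of 35114 RefSeq promoter windows (7.72%) held 1 at least as close, with a gap of at most 1 base. Within 25 bases of the listed positions, the longest stretch common to SMAD5 and PKLR was GCTGCGGGACC, of 11 bases, on opposite strands. It was 9 bases for MIR205HG (GGGACCATG), 8 for ETHE1 (GGAATGAG) and 8 for EEPD1 (CCATGGAA). RAB23 had the shortest, GCTGCGG with 7 bases, on the strand opposite to its match with word 3.

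Matches to word 3 as close as that of ETHE1 were rare among RefSeq promoter windows. Here each window was searched over its whole length, not only within 10 bp of a listed position. Of 35114 windows of 300 bases outside PKLR, 1 (0.00285%) held a stretch next to NGG with at most 2 differing letters and a gap of at most 1 base, on either strand. That window was the ETHE1 window, whose SG1 site is at rank 3 of the off-target list. With at most 3 differing letters there were 10 windows (0.0285%), of which those of ETHE1 and EEPD1 held an SG1 site. Allowing 4 differing letters gave 63 windows (0.179%), of which 4 held a listed SG1 site, those of ETHE1, EEPD1, RAB23 and MIR205HG. Without a gap, the MIR205HG window alone had at most 4 differing letters. For the other words, windows with at most 3 differing letters numbered 68 (word 1), 9 (word 2), 6 (word 4) and 15 (word 5), and the EEPD1 window for word 4 was the only one of these with an SG1 site. Word 3 was singled out on these windows, so the matches are a description and do not show which word SG1 carries. The words are letters in the reference sequence, and the DNA of the cells themselves was not read here.

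The listed position near EEPD1, which encodes a protein with an endonuclease-like domain, lies outside the gene, 200 bp before its start. The surrounding 101 bases (chr7:36153004-36153104, plus strand) are shown with the stretch matched by word 3 in capitals:

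EEPD1 upstream sequence: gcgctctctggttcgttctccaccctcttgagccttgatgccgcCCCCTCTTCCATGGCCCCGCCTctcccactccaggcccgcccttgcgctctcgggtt

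A count of 2728 was deposited for PKLR and 30022 counts in sum for the off-target sites, which is 11.0 times as many. The counts were spread over many sites. The top site held 8.93% of the off-target counts, the top 5 held 26.5% and the top 20 held 53.6%. Of the off-target counts, 50% lay in 18 sites, 90% in 155 and 99% in 359. The median site had 16 counts, and 155 sites had under 10 counts, which together held 2.60% of the off-target counts. The low end had no gap: 24 sites had 2 counts, 23 had 3, 27 had 4 and 15 had 5.

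At ranks 2, 3, 5 and 10 the SG1 values lay below those of SG2 and SG4, the guides with lists of similar length. The most counted off-target site had 2680 counts for SG1, below its PKLR count of 2728. It exceeded the PKLR count for SG2 (5515 against 5335) and SG4 (8052 against 4654). At rank 2 the values were 71.8% for SG1, 81.7% for SG2 and 114% for SG4, and at rank 3 they were 44.3%, 66.3% and 98.2%. At rank 5 SG1 had 36.3% of its PKLR count (exact 95% interval 33.7 to 39.0%), against 62.4% for SG2 (59.7 to 65.1%) and 60.3% for SG4 (57.5 to 63.2%). At rank 10 the values were 22.5% (20.6 to 24.6%), 34.6% (32.8 to 36.5%) and 30.3% (28.5 to 32.1%). At rank 20 the intervals of the 3 lists overlapped, at 15.1% (13.6 to 16.8%), 14.5% (13.4 to 15.6%) and 16.4% (15.2 to 17.7%). The rank 30 site of SG1 was again lower, with 6.96% (5.98 to 8.07%) against 9.11% for SG2 (8.28 to 10%) and 9.67% for SG4 (8.76 to 10.7%). At rank 50 SG1 had 4.29% (3.53 to 5.16%), near the 3.96% of SG2 (3.43 to 4.54%) and below the 5.95% of SG4 (5.25 to 6.72%). The rank 100 site stood at 1.91% for SG1 (1.42 to 2.51%), at 1.69% for SG2 (1.35 to 2.08%) and at 2.13% for SG4 (1.73 to 2.60%). The sites that held 50% of the off-target counts numbered 18 for SG1 and 13 for both SG2 and SG4. The median count was 16 in all 3 lists. The lowest listed count of 2 stands for 0.0733% of the PKLR count in SG1, 0.0375% in SG2 and 0.0430% in SG4, so the lists do not reach equally far down. Intervals cover counting error only and treat every count as independent. Whether the counts are of reads or of molecules is not stated, and amplified reads would not be independent.

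**Figure D1:**
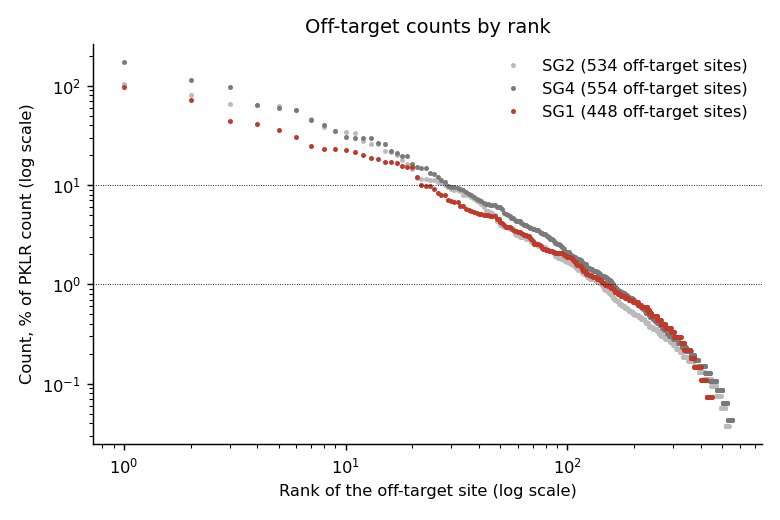
Count of each off-target site as a percent of the PKLR count of its library, by rank, both on log scales; red points are SG1, light grey SG2 and dark grey SG4, and dotted lines mark 10% and 1%. At ranks 5 and 10 the SG1 points (36.3% and 22.5%) lie below those of SG2 and SG4, and at rank 100 the 3 lists lie between 1.69% and 2.13%.

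Of the 30 most counted off-target sites, 17 lay in protein-coding genes, 3 in other annotated genes only and 10 outside genes. KCNG3, which encodes a subunit of voltage-gated potassium channels, had 835 counts at position 42408749 of chromosome 2, or 30.6% of the PKLR count (28.3 to 33.1%). NRG3, a neuregulin ligand of the receptor ERBB4, had 582 counts (chromosome 10, 82501531, 21.3%, interval 19.5 to 23.3%). FLT3LG, the ligand of the blood-cell receptor FLT3, had 549 counts (chromosome 19, 49481162, 20.1%). CADPS2, which acts in the release of dense-core vesicles, had 424 counts (chromosome 7, 122383972, 15.5%). The intervals of NRG3 and FLT3LG overlap, so counting error does not order them.

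The position in PRRT4, a proline-rich transmembrane protein gene (chromosome 7, 128355656), had 668 counts (24.5%), and that in the lipid-transfer family gene SEC14L3 (chromosome 22, 30469949) had 632 counts (23.2%). NIPSNAP1, the gene of a mitochondrial protein, had 418 counts (chromosome 22, 29580279, 15.3%), 834 bp inside its start. USP40, of the deubiquitinase family, had 328 counts (chromosome 2, 233486764, 12.0%). SUSD1 had 275 counts (chromosome 9, 112132880, 10.1%, interval 8.87 to 11.4%) and was the last site above 10% of the PKLR count. TRIM22, an interferon-induced antiviral gene, came next with 269 counts (chromosome 11, 5689930, 9.86%, interval 8.67 to 11.2%). Their intervals overlap, so the mark of 10% falls between neighbours that counting error does not separate.

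The lower end of the 30 held MEGF9 (247 counts, 9.05%), FRMD5 (215 counts, 7.88%), LAMB4, a laminin chain gene (193 counts, 7.07%), and SH3KBP1, an adaptor gene of receptor endocytosis on chromosome X (190 counts, 6.96%). In all, SYNJ2, CIB1 with the overlapping TTLL13, and ETHE1 led the genes, at 98.2%, 71.8% and 44.3% of the PKLR count. The interval of SYNJ2 was 93.1 to 104%, so counting error does not separate its 2680 counts from the 2728 of PKLR.

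Sites outside annotated genes were also among the leaders. The site at 27361164 of chromosome 13 had 1113 counts, 63455 bp from GTF3A, a factor for 5S ribosomal RNA transcription, which is the nearest protein-coding gene. A weaker site with 140 counts lay 29064 bp away from it at 27332100. A site with 990 counts on chromosome 10 (85060973) was 538579 bp from the nearest coding gene, GRID1, a glutamate receptor family gene. On chromosome 1, 615 counts lay 22036 bp from the potassium channel gene KCNA10 (110495181), and on chromosome 9, 507 counts lay 59192 bp from CEMIP2 (71624174). Positions near KRT80 (465 counts), ATP11B (452), CIMIP1 (265), KCNK2 (226) and MPDZ (218) made up the rest of those outside genes, besides EEPD1. A site in the long non-coding RNA gene LOC107986478 on chromosome 5 (172631218) had 467 counts.

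**Figure D2:**
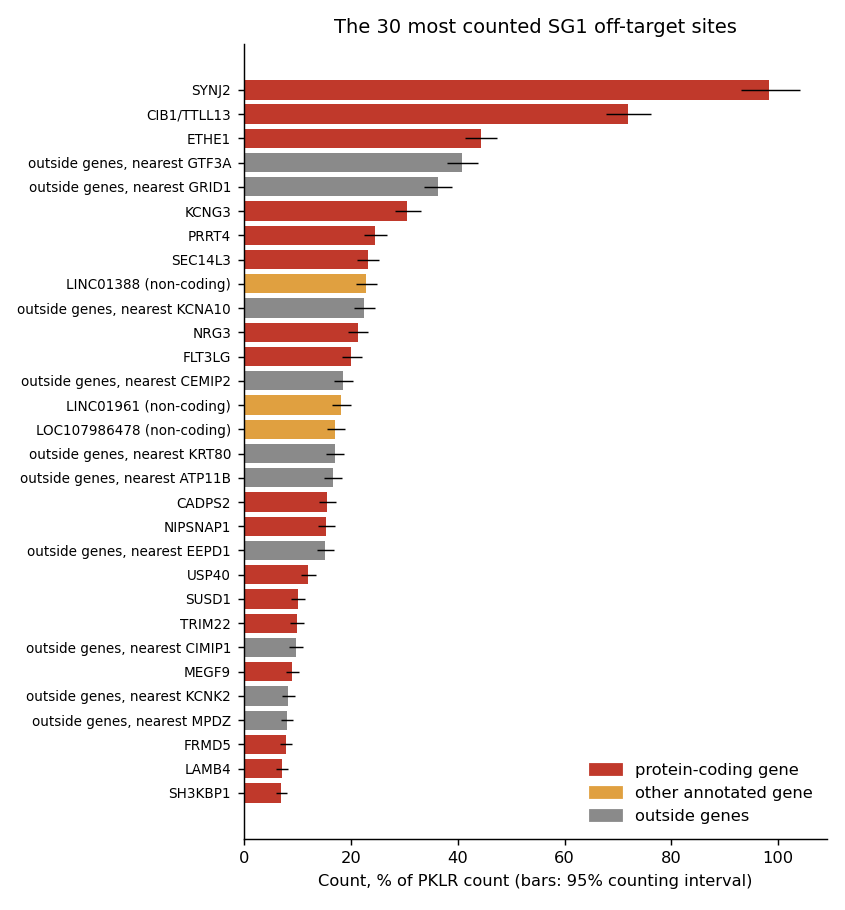
Count as a percent of the PKLR count for the 30 most counted SG1 off-target sites, labelled by the gene that holds them or the nearest protein-coding gene; lines are exact 95% counting intervals and colours give the kind of place. The bars fall from 98.2% at SYNJ2 to 6.96% at SH3KBP1.

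Of 429 sites on the 22 chromosomes for which the promoter table gave gene starts, 18 (4.20%, exact 95% interval 2.51 to 6.55%) lay within 1000 bp of the start of a protein-coding gene. Sequence within that distance makes up 1.26% of these chromosomes. The share was 5.04% for SG2 (3.32 to 7.30%) and 5.87% for SG4 (4.02 to 8.23%), and the intervals of the 3 guides overlap. The table holds starts for 15843 of 20056 protein-coding genes, so the numbers are lower bounds. ETHE1, NIPSNAP1 and EEPD1, all above 10% of the PKLR count, were among the 18.

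The other sites near starts had smaller counts, and those from 250 to 1000 bp away were named after their values were seen. HS6ST3, a heparan sulfate sulfotransferase gene, had 137 counts 761 bp inside its start (5.02%). CGREF1 had 112 counts at 555 bp inside, and FBN2, which encodes the matrix protein fibrillin 2, had 104 counts at 897 bp before its start. LAMTOR5, a subunit of the lysosomal Ragulator complex, had 85 counts at 238 bp inside its start. A site in HPS1 lay 310 bp before the start of PYROXD2 (87 counts), and TMEM14C, a mitochondrial gene needed for haem synthesis in red cell precursors, had 62 counts 292 bp before its start. Those near the starts of RBPJ (23 counts), the DNA-binding factor of Notch signalling, and IL6R (11 counts), the interleukin 6 receptor gene, were under 1% of the PKLR count. C1orf232 had 37 counts, SPACA6 8, BCAR3 5, and GSE1 and UBA1 had 2 each.

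Within 250 bp of a protein-coding start there were 6 sites: ETHE1, EEPD1, LAMTOR5, RAB23, SMAD5 and GSE1. RAB23 encodes a small GTPase that restrains Hedgehog signalling, and its site, 28 bp inside the start, also lies in the neighbouring primase gene PRIM2. SMAD5 is a signal carrier of bone morphogenetic proteins, and its site lies 89 bp before the start. ETHE1, a mitochondrial persulfide dioxygenase, was listed at the first base of its RefSeq transcript. The 3 lowest of the 6 had 13 counts (0.477% of the PKLR count, 0.253 to 0.816%), 9 counts (0.330%, 0.151 to 0.627%) and 2 counts (0.0733%, 0.00887 to 0.265%).

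Of all 448 sites, 243 lay in protein-coding genes, 41 in other annotated genes only and 164 outside genes. By counts, protein-coding genes held 58.0%, other genes 8.41% and sequence outside genes 33.6%. Among the 22 sites at 10% of the PKLR count or more, 54.5% were in protein-coding genes (interval 32.2 to 75.6%). The figure was 45.6% among the 125 sites from 1 to under 10% (36.7 to 54.7%), 57.7% among the 156 from 0.3 to under 1% (49.5 to 65.6%) and 57.9% among the 145 below (49.5 to 66.1%). Protein-coding genes cover 41.6% of the sequence, with gaps in the assembly left in. The intervals of the lower classes lay above that value, and those of the upper classes include it. The classes overlap in their intervals, and no test between them was made. From 0.3 to under 1%, SG2 had 47.5% (38.4 to 56.8%) and SG4 41% (32.7 to 49.7%), and both intervals include 41.6%. Below 0.3% they had 58.7% (52.6 to 64.7%) and 51.2% (44.9 to 57.5%), both above it. Over all sites the coding share was 54.2% for SG1, 53.5% for SG2 and 49.7% for SG4.

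**Figure D3:**
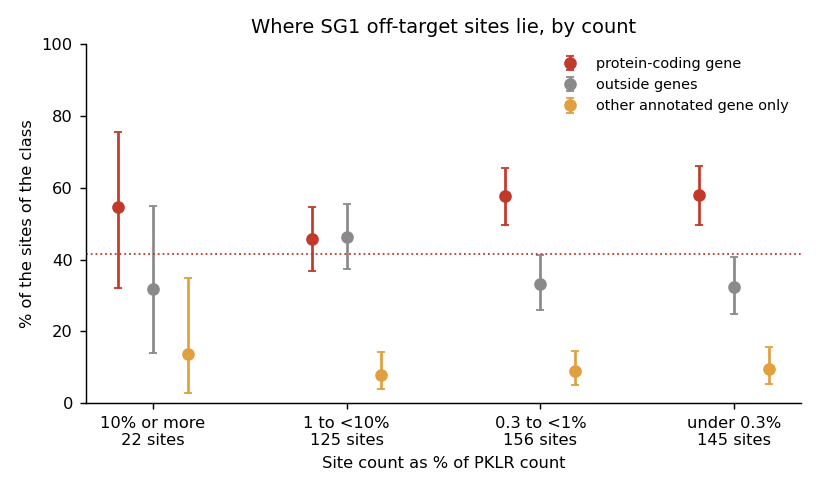
Share of SG1 off-target sites in protein-coding genes, in other annotated genes only and outside genes, for 4 classes of count; points are shares, bars exact 95% intervals, and the dotted line marks 41.6%, the part of the sequence inside protein-coding genes. In the 125 sites from 1 to under 10% of the PKLR count the shares in coding genes and outside genes are nearly equal (45.6% and 46.4%).

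Outside genes, the median distance to the nearest protein-coding gene was 33790 bp. It was within 1000 bp for 12 of 164 sites and beyond 100000 bp for 48. The closest lay 116 bp from MTPAP, the mitochondrial poly(A) polymerase gene (154 counts, 5.65% of the PKLR count). Others within 1000 bp were near PRAG1 (96 counts, 450 bp), the Wnt pathway scaffold gene AXIN2 (50 counts, 320 bp) and IFI27L1 (42 counts, 140 bp). These genes were named after their values were seen. At the mark of 1% of the PKLR count, the last site above it had 28 counts (1.03%, interval 0.681 to 1.49%) near DOLPP1 and the first below it had 27 counts (0.990%, 0.651 to 1.44%) near TAT.

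SG1 sites were found on each of chromosomes 1 to 22 and X. Their density was 14.8 sites per 100 Mb between the first and last annotated gene, with gaps in the assembly left in. Chromosome 19 had the highest density, 47.8 per 100 Mb (28 sites, exact 95% interval 31.8 to 69.1), and chromosome 17 followed with 30 (25 sites, 19.4 to 44.3). Chromosome 16 had 26.6 (24 sites, 17.0 to 39.6). The lowest were chromosome 5 with 6.61 (12 sites, 3.42 to 11.6), chromosome 13 with 7 (8 sites, 3.02 to 13.8) and chromosome X with 7.06 (11 sites, 3.52 to 12.6). These 6 intervals do not include 14.8, though the upper end for chromosome 13, 13.8, lies close to it. Gaps were not taken out, so a span can exceed the sequence in which a site could be listed. Whether the 6 intervals would leave out the common value without gaps was not tested. Protein-coding genes cover 54.0% of chromosome 19, 53.1% of chromosome 17 and 43.2% of chromosome 16. They cover 38.5% of chromosome 5, 29.2% of chromosome 13 and 32.6% of X. Chromosomes 9 and 22, with cover of 37.4% and 37.9%, had 18.8 and 21.7 sites per 100 Mb, so density did not follow this cover throughout. The copy number of chromosomes in this line was not measured here, and its part in these densities was not tested.

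Chromosome 2 had the most sites, 39, with 9.46% of the off-target counts, and chromosomes 14, 20 and 21, with 9, 5 and 5 sites, held 0.939%, 1.07% and 0.366%. Chromosome 6 held 16 sites and 9.99% of the off-target counts, of which 2680 of 2999 counts were the site in SYNJ2. Chromosome 16 held 24 sites but 1.79% of the counts, and its most counted site had 109. Chromosome 4, with 20 sites, held 0.973% and had no site above 59 counts. Chromosome 13, with 8 sites, held 5.05%, mostly from the site near GTF3A.

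**Figure D4:**
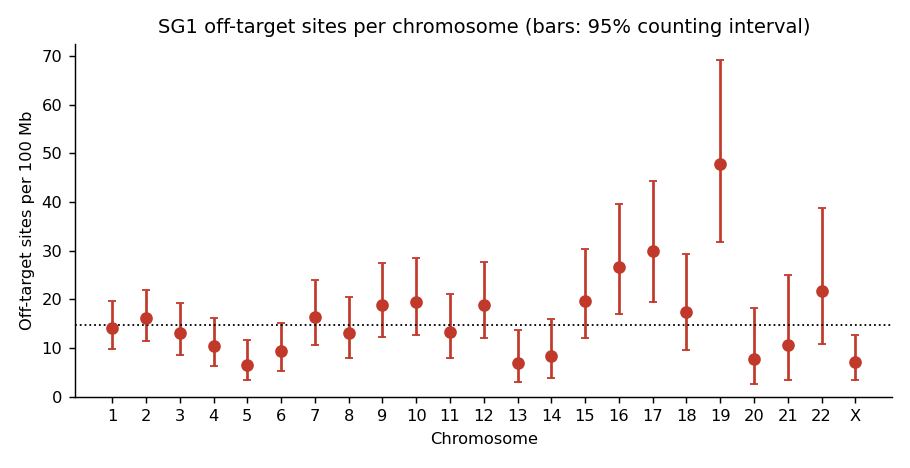
SG1 off-target sites per 100 Mb of each chromosome, with exact 95% counting intervals; the dotted line is the value over all chromosomes (14.8). Chromosome 19 stands highest at 47.8, and chromosomes 5, 13 and X lie near 7.

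The 243 sites in protein-coding genes fell in 251 genes, because genes can overlap. Of these sites, 134 (55.1%, interval 48.7 to 61.5%) were in genes over 100000 bp, where 67.2% of protein-coding sequence lies. Genes over 500000 bp held 33 (13.6%, 9.54 to 18.5%), against 20.7% of the sequence. After NRG3 and CADPS2 the most counted of these were PTPRN2, a receptor-type phosphatase family gene of secretory vesicles (145 counts), ZNF385D (140 counts) and HS6ST3, the first 2 named after their values were seen.

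Few genes held more than 1 SG1 site. CAMK1D, a calcium-dependent kinase gene, had 123 and 8 counts at positions 139114 bp apart. LHPP, a phosphatase gene, had 101 and 21 counts 55763 bp apart, and ERBB4 had 8 and 3 counts 980423 bp apart. No neighbouring sites lay within 1000 bp of each other, 1 of 425 neighbour pairs lay within 10000 bp and 12 within 100000 bp. The closest pair (picked after its values were seen), 5876 bp apart on chromosome 12, had 6 counts in HSD17B6 and 58 counts outside genes. Beside EEPD1, with 413 counts upstream, a further site with 48 counts lay inside the gene, 43380 bp on.

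Of 137 cancer genes, 4 held an SG1 site. NTRK3, a neurotrophin receptor gene, had the most, with 57 counts (chromosome 15, 88108494), or 2.09% of the PKLR count (1.58 to 2.72%). ALK, a receptor tyrosine kinase gene, had 9 counts (0.330%), and the ERBB4 sites are given above. The 5 sites are 2.06% of the SG1 sites in protein-coding genes, where the list holds 1.21% of the summed length of these genes.

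Of 79 genes of red cells, blood formation and glycolysis, besides PKLR, 2 held a site. The list, written for this work, is not complete: it leaves out FLT3LG, whose site had 549 counts (20.1% of the PKLR count). CA1, a carbonic anhydrase abundant in red cells, had 43 counts (chromosome 8, 85366488), or 1.58% of the PKLR count (1.14 to 2.13%). ENO2, an enolase of glycolysis, had 22 counts (chromosome 12, 6916397, 0.806%, 0.505 to 1.22%). The 2 sites are 0.823% of the SG1 sites in protein-coding genes, and the list holds 0.254% of the summed gene length.

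Common fragile sites are long regions that break when DNA copying is slowed. Of 36 genes of such regions 6 held a site, with these counts: PARD3B (35), MACROD2 (19), WWOX (13), PRIM2 (13), LRP1B (8) and ERBB4 (8 and 3). The 7 sites are 2.88% of those in protein-coding genes, and the list holds 3.40% of the summed gene length.

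Places listed for SG1 and another guide numbered 9, or 2.01% of the SG1 sites, and held 11.2% of the SG1 off-target counts. A margin of 50 bp around each site decided whether sites of 2 guides were the same place. In 3 of the 9 SG1 had the highest count. SYNJ2 had 2680 counts for SG1 and 5 each for SG3 and SG4. NRG3 had 582 counts for SG1 against 2 for SG4, and a place 7476 bp from OXCT1, a ketone body enzyme gene on chromosome 5 (41722589), had 80 for SG1 against 2 for SG3.

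In the other 6 places SG1 had 10 counts or fewer and another guide had 712 or more. The place near PHGR1 on chromosome 15 (40349348) had 10 counts for SG1 and 3536 for SG2. FXYD7 had 6 for SG1, 3 for SG2 and 2805 for SG4, with a further 26 counts for SG4 within 41 bp. A place 70410 bp from CCND1 on chromosome 11 had 4 for SG1, 6 for SG2 and 1409 for SG4. ERBB4 had 3 for SG1, 3 for SG7 and 712 for SG8, and SMCHD1, a gene of chromatin silencing, had 2 for SG1, 5 for SG8 and 1114 for SG3.

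By guide, SG1 shared 5 sites with SG4 (1.12% of the SG1 list and 1.08% of the SG4 list), 3 with SG2 (0.670% and 0.562%) and 3 with SG3 (0.670% and 6.12%). It shared 2 with SG8 (0.446% and 7.14%) and 1 with SG7 (0.223% and 14.3%). The 1.08% of the SG4 list counts both SG4 sites at FXYD7, where SG1 has a single site. At each shared place the highest count was at least 40 times the lowest. Carry-over between libraries was not tested.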

How the data were processed

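GUIDE-seq site lists of 6 guides were used, 1 library each, with SG1 as the subject. Per the file headers, the authors deposited for each site a whole-number count (not normalized) and a ratio. In the SG1 list the deposited ratio equals the count over the PKLR count, with a largest difference of 4.96e-10. The build, hg38, is per the submitters' processing notes. For the aligner, site caller, filters and reads with several matches: not given in the sources used here. The total listed count of SG1 was 32750, which is not its depth.

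Percentages were computed from the counts. Densities and the shares of sequence inside genes or near starts use the span from the first to the last gene of each chromosome. Gaps in the assembly were left in these spans. Ratios and shares have exact 95% Clopper-Pearson intervals and densities exact Poisson intervals, all for counting error only. Genes, starts and sequences came from RefSeq tables (GRCh38.p14), without exons; the table gave no starts on chromosome 8. Named were the PKLR site, the 30 most counted sites, those within 250 bp of a coding start, shared places, genes with several sites, list genes and the neighbours of the 10% and 1% marks. Members, lists and rule were chosen with earlier results of these data known. The cancer and blood lists of the earlier work were not at hand, so these and the fragile site list were written for this work. Alternatives were minimum counts, merging of neighbours, other windows and all annotated genes. A cancer gene and a shared place that the rule names are not reported here, though the counts include them. The code was tested on simulated data. Tables were handled with pandas 2.3.3 and numpy 2.4.6 under Python 3.11.15, intervals came from scipy 1.17.1, and plots from matplotlib 3.10.9.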

Additional observations from a re-analysis of the deposited data

How the results depend on the processing

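The number of off-target sites fell from 448 to 293 with at least 10 counts per site, by construction, and was 374 with at least 5. Protein-coding genes held 54.2% of sites, 46.9% of those at 1% of the PKLR count or more, and 63.4% with all annotated genes, which cover 55.2% of sequence. The PKLR share of listed counts was 8.33%, and 9.29% without places listed for another guide. Sites near a coding gene start numbered 18 within 1000 bp, 6 within 250 bp and 51 within 5000 bp, by construction. The other 20 recomputed values stayed within the counting interval or within 1.5 times the reported count. They include numbers of sites with neighbours merged within 1000 bp, the coding share with positions moved by 1 base, and shared places at the same base (7) or widened by 200 bp (9). No paired analysis was possible because SG1 and every other guide come from a single library, which also prevents leaving a replicate out. The 24 sites with 2 counts have wide intervals (0.00887 to 0.265% of the PKLR count).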

Other observations

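Some SG1 sites lay in or near genes that have copies by name, and the sets were found by gene names after the list was seen. The sequences of the copies were not compared. Where copies are alike, the assignment of reads to a copy is uncertain. PLEKHM1, which acts in the fusion of autophagosomes with lysosomes, had 57 counts 18135 bp from its upper end, and the pseudogene PLEKHM1P1 had 56 counts 17944 bp from its upper end, both on chromosome 17. PDPR, a regulatory subunit gene of pyruvate dehydrogenase phosphatase, had 68 counts 5168 bp from its lower end, and PDPR2P had 51 counts 5728 bp from its upper end, both on chromosome 16. In DTX2, of the Notch pathway, 6 counts lay 33127 bp from the lower end, and in DTX2P1 19 counts lay 33185 bp from it.

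The forkhead gene FOXD4 has 6 family members in the gene table, and 3 of them had an SG1 site within 50000 bp. A site with 626 counts (22.9% of the PKLR count, interval 21.0 to 25%) lay 13600 bp from FOXD4 at position 102631 of chromosome 9. A site with 496 counts (18.2%, 16.5 to 20%) lay 12508 bp from FOXD4L1 on chromosome 2 (113513658). FOXD4L6 had 8 counts at 23813 bp. No source used here says how reads matching several copies were assigned, and its part in these counts was not tested.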
